A study of Mus musculus with 12 samples.

Results

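BMDM (macrophages grown in culture from bone marrow) of Camkk2-/- mice, labelled KO, were compared between a stiffened hydrogel without cytokine and a soft hydrogel with IL-4. This comparison holds 4 of the 12 RNA-seq libraries of the series, 2 labelled KO stiff and 2 labelled KO soft+IL-4, and was made over the 10726 of 14098 listed genes that reached 1 TPM in at least 2 of these 4 libraries. Bone marrow came from C57Bl/6 mice of 8 to 10 weeks, and BMDM were raised in L929-conditioned medium, a source of M-CSF. Cells of all groups were embedded in 3D in a collagen and hyaluronic acid gel, the stiff gel was crosslinked by UV light with the photoinitiator Irgacure at 24 h after embedding, and culture went on for 48 h before the gel was digested with collagenase IV. IL-4 was given in the soft gel alone, and the stiff gel was made with more collagen per the study's methods, so the compared groups differ in stiffness, crosslinking, collagen content and cytokine, which cannot be told apart within the comparison. The 2 libraries of KO BMDM in the soft gel without IL-4 (KO soft) serve as the background of both groups, and the 2 WT stiff and 2 WT soft+IL-4 libraries as the same contrast in Camkk2+/+ cells. The deletion is carried by the mouse, so that all cells of a KO culture should lack the gene.

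IL-4 binds a receptor made of IL-4Rα (Il4ra) and the common γ chain (Il2rg), whose JAK kinases phosphorylate the transcription factor STAT6. In macrophages STAT6 drives the genes of the M2-like, pro-regenerative program, such as the secreted protein gene Retnla and the lectin genes Mgl2 and Mrc1, and also the SOCS family genes that limit the signal. CaMKK2 is a calcium and calmodulin dependent kinase that acts on AMPK, CaMKI, CaMKIV and AKT. The question the contrast addresses is how far a stiff matrix alone brings Camkk2-/- BMDM towards the state that IL-4 gives them.

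For Camkk2 itself (chromosome 5, 122731170 to 122779409 on GRCm38, minus strand) the table gives 37.7 TPM for the library labelled KO stiff 1 and 10.0 TPM for KO stiff 2. KO soft+IL-4 1 and 2 had 11.5 and 8.54 TPM, while the 4 WT libraries of the same conditions ranged from 23.3 to 30.5 TPM. Its log2 fold change in the comparison was 0.92 ± 0.757 (adjusted p = 0.608 in limma). The library labelled KO stiff 1 therefore goes against its label, as do KO soft 1 (46.6 TPM) and WT soft 2 (11.7 TPM), so every direction below rests on the labels. The interferon-inducible gene Ifi202b moved with this split: it was listed at 1.34 TPM in KO stiff 1 and 0 in KO soft 1, against 79.4 TPM in KO stiff 2, 78.4 TPM in KO soft 2 and 80.4 and 82.5 TPM in the KO soft+IL-4 libraries. Ifi44 (6.41 and 62.1 TPM in KO stiff 1 and 2) and Ifi44l (0.862 and 47.0 TPM) were also low in KO stiff 1 and high in KO stiff 2. These 3 genes were chosen after their values were seen, and the part of this split in the results was not tested. Between 10.7% and 13.4% of the listed genes were at 0 in the libraries numbered 1 of all groups and between 5.90% and 7.54% in those numbered 2. TPM, which scales each library to the same total of transcripts, keeps no read counts, so depth and counting error are unknown. Of 8 macrophage markers all were tested, with a summed level of 46000 and 48600 TPM in the KO stiff libraries and 23600 and 23900 TPM in the KO soft+IL-4 libraries, most of it Lyz2. The summed markers of B cells, T or NK cells, mast cells or basophils, erythroid cells and fibroblasts were at 0 to 3.38 TPM in the 4 libraries, those of eosinophils at 6.12 to 9.05 TPM, those of neutrophils at 128 to 165 TPM, led by Csf3r, and those of dendritic cells at 13.3 to 19.6 TPM. The endothelial markers summed to 31.3 and 25 TPM in the stiff gel and 42.0 and 44.3 TPM with IL-4, and of the lists of other cell types theirs alone held a called gene, Kdr, at 2.62 and 2.5 TPM against 0.717 and 0.489 TPM. The part of these cells in the results was not tested.

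Surface receptors of innate immunity were among the genes higher in KO stiff, and genes of the IL-4 program among those lower. Of the genes tested, 183 (1.71%) were DE genes, 126 (1.17%) higher in KO stiff and 57 (0.531%) lower. A DE gene here differs by 1 or more on the log2(TPM + 1) scale in either direction and has a Benjamini-Hochberg adjusted p under 0.05 in limma, fitted over all 12 libraries. The median log2 fold change (stiff minus soft+IL-4) was 1.38 over the genes called higher, -1.31 over those called lower and 0.0322 over all genes tested. A difference of 2 or more on the same scale was reached by 22 of the genes called higher and by 2 of those called lower, Retnla and Il4i1. In all 183 the compared libraries did not overlap, but this held for 58.2% of the genes tested, and with 2 libraries against 2 an exact permutation test cannot go below p = 0.333. Of the 183, 12 had passed the filter on low values through 1 group only, and 11 of these were higher in KO stiff and under 1 TPM in both KO soft+IL-4 libraries. Cx3cr1, Pilrb1, Adgre4, Cxcr3, Cxcl1, Siglece and Kdr are among these 11, and such genes had to differ to be tested at all.

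The number of calls changed when a single library was left out, which leaves 1 library in its group. The loss of a particular library and the smaller group cannot be told apart in these counts. Leaving out KO soft+IL-4 1, KO soft+IL-4 2, KO stiff 1 or KO stiff 2 left 68, 87, 98 and 86 DE genes, and leaving out WT stiff 1 or WT stiff 2, which enter only through the shared spread, gave 278 and 279. Of the 183, 59 were called in each of the first 4 fits, 47 of them higher and 12 lower in KO stiff, and 74 in none of the 4. Without the 3 libraries whose Camkk2 goes against the label, 18 genes were called, 16 of them among the 183. All 183 kept their sign in each of these fits, but since their compared libraries did not overlap, leaving some out could not turn a sign. With 1 of the 4 compared libraries left out, 168 to 175 of the 183 still differed by 1 or more on the log2 scale (171 without KO stiff 1). Genes called in none of the first 4 fits include Retnla (adjusted p 0.170 to 0.217), Mgl2 (0.119 to 0.154), Ccl22 (0.0675 to 0.0859), Socs1 (0.0517 to 0.0952), Cish (0.114 to 0.158), Aldh1a2 (0.121 to 0.164), Maf (0.0832 to 0.145), Cd14 (0.0910 to 0.108) and Ccr2 (0.0825 to 0.0917). Those called in all 4 include Il4i1 (0.00290 to 0.00506), Tlr2 (0.00333 to 0.00506), Fcgr1 (0.00277 to 0.00506) and Cx3cr1 (0.0132 to 0.0217). Without the 3 libraries Il4i1, Socs1, Tfrc, Plekhf1, Tlr2, Fcgr1, Ly6a and Ms4a6b were among the 16.

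**Figure D1:**
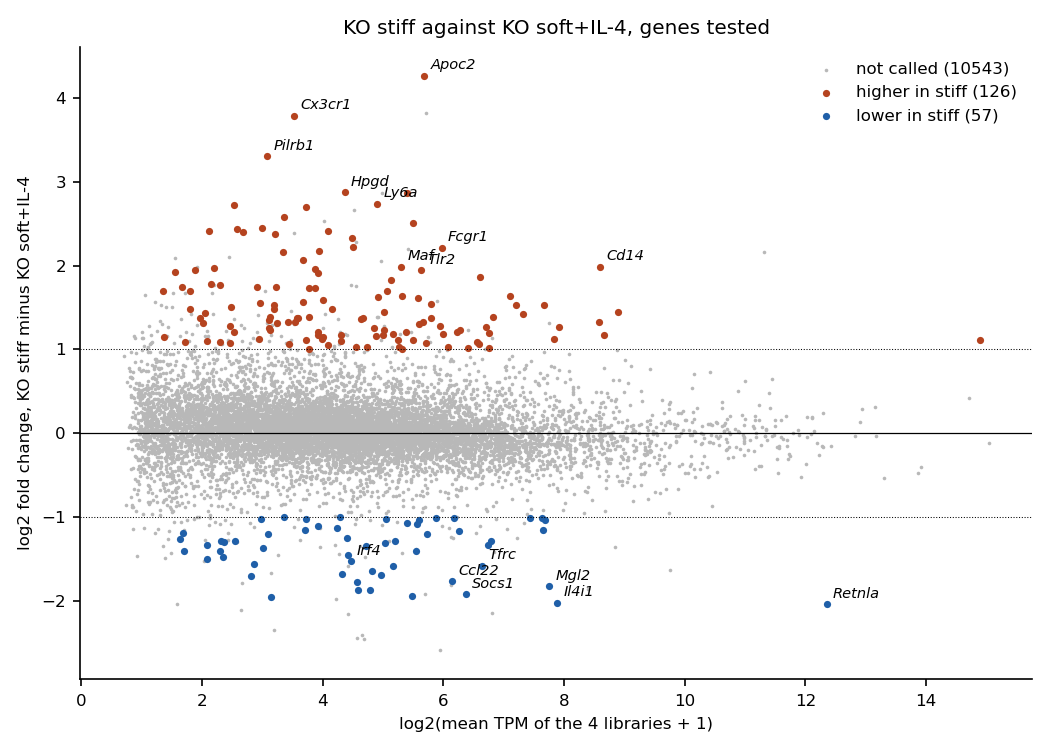
Log2 fold change of KO stiff minus KO soft+IL-4 (vertical axis, on log2(TPM + 1)) against the log2 of the mean TPM of the 4 libraries plus 1 (horizontal axis), 1 point per gene tested. Red points are the 126 genes called higher in KO stiff, blue points the 57 called lower, grey points the other genes, and dotted lines mark a log2 fold change of 1 in either direction.

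Of 27 tested IL-4 effector genes, 7 were called lower and 0 higher (Retnla, Il4i1, Mgl2, Ccl22, Flt1, Itgb3 and Matk), against 0.531% and 1.17% of all genes tested. The median log2 fold change of the 27 was -1.37 against 0.0322 over all genes. With each of the 4 compared libraries left out in turn, 3 members were called each time, while 13 were called without WT stiff 1 or without WT stiff 2 and 15 with only the 4 compared libraries in the fit. In 25 of the 27 both KO stiff libraries lay below both KO soft+IL-4 libraries, as in 25% of all genes tested. Several members of this list are IL-4 genes that the study itself followed, so its direction is no independent evidence.

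Retnla, which encodes the secreted protein RELMα, was listed at 2020 and 2090 TPM in the stiff gel and reached 8490 and 8360 TPM with IL-4. In KO soft it was at 434 and 242 TPM, so the stiff gel sat between the soft gel and IL-4 with no overlap. Its level was 4.10-fold higher with IL-4 than in the stiff gel (log2 fold change -2.04 ± 0.450 SE, adjusted p = 0.0368 in limma). Il4i1, an enzyme that oxidises phenylalanine, was at 85.9 and 99.7 TPM in KO stiff, 382 and 374 TPM with IL-4 and 19.8 and 17.1 TPM in the soft gel. Its fold change was -2.02 ± 0.134 on the log2 scale (adjusted p = 0.000178 in limma). Mgl2, a galactose-binding lectin, was at 94.1 and 94.8 TPM in KO stiff against 337 and 334 TPM with IL-4 and 19.2 and 13.4 TPM in the soft gel. The chemokine gene Ccl22, whose product draws CCR4+ T cells, stood at 30.5 and 32.1 TPM in KO stiff, 109 and 108 TPM with IL-4 and 11.7 and 8.20 TPM in the soft gel. For each of these 4 genes the 3 KO groups followed in the order soft, stiff, soft+IL-4 with no overlap, and the replicates lay farther apart in KO soft than in the other groups for Retnla, Mgl2 and Ccl22. The VEGF receptor gene Flt1 (7.88 and 9.17 TPM in KO stiff, 29.0 and 29.9 TPM with IL-4) and the integrin gene Itgb3 (3.74 and 3.24 TPM against 11.4 and 9.88 TPM) had log2 fold changes of -1.68 and -1.37.

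Other members of the list had a difference of like size that did not pass the test over all 12 libraries. The chitinase-like gene Chil3 was at 540 and 322 TPM in KO stiff and 1340 and 1260 TPM with IL-4 (log2 fold change -1.64, adjusted p = 0.298 in limma), and the chemokine gene Ccl17 at 13.8 and 6.53 TPM against 32.6 and 28.9 TPM (-1.59, adjusted p = 0.120). Ccl24, an eosinophil chemoattractant, had the most negative value of the list, -2.14, with 33.2 and 48.9 TPM against 180 and 183 TPM and an adjusted p of 0.0696. The mannose receptor gene Mrc1, which encodes the marker CD206, was at 94.2 and 114 TPM in KO stiff and 218 and 217 TPM with IL-4 (-1.07, adjusted p = 0.159). Fn1, the fibronectin gene, was at 28.3 and 21.9 TPM against 68.5 and 64.9 TPM (-1.39, adjusted p = 0.213), and Lgals3, the galectin-3 gene, at 8760 and 7850 TPM against 12100 and 11900 TPM (-0.54, adjusted p = 0.0947). Arg1, the arginase gene, varied most within its groups, with 35.3 and 9.84 TPM in KO stiff and 70.3 and 39.1 TPM with IL-4, which do not overlap but lie within the spread of the fit (log2 fold change -1.43 ± 1.93, adjusted p = 0.781). Clec7a and Igf1 passed the adjusted p (0.0320 and 0.000494 in limma) with log2 fold changes of -0.57 and -0.83, under the limit of 1. The fit takes its spread from all groups, and WT stiff 1 and 2 lay far apart for some members. From the WT soft mean to that of WT soft+IL-4 in TPM, they lay at 412% and 86% for Chil3 and at 496% and 91% for Fn1. Over 8 other settings the adjusted p in limma ran from 0.00938 to 0.392 for Chil3 and from 0.00205 to 0.114 for Ccl24. For Mrc1 it ran from 0.00278 to 0.224, for Fn1 from 0.00288 to 0.293 and for Arg1 from 0.169 to 0.855.

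**Figure D2:**
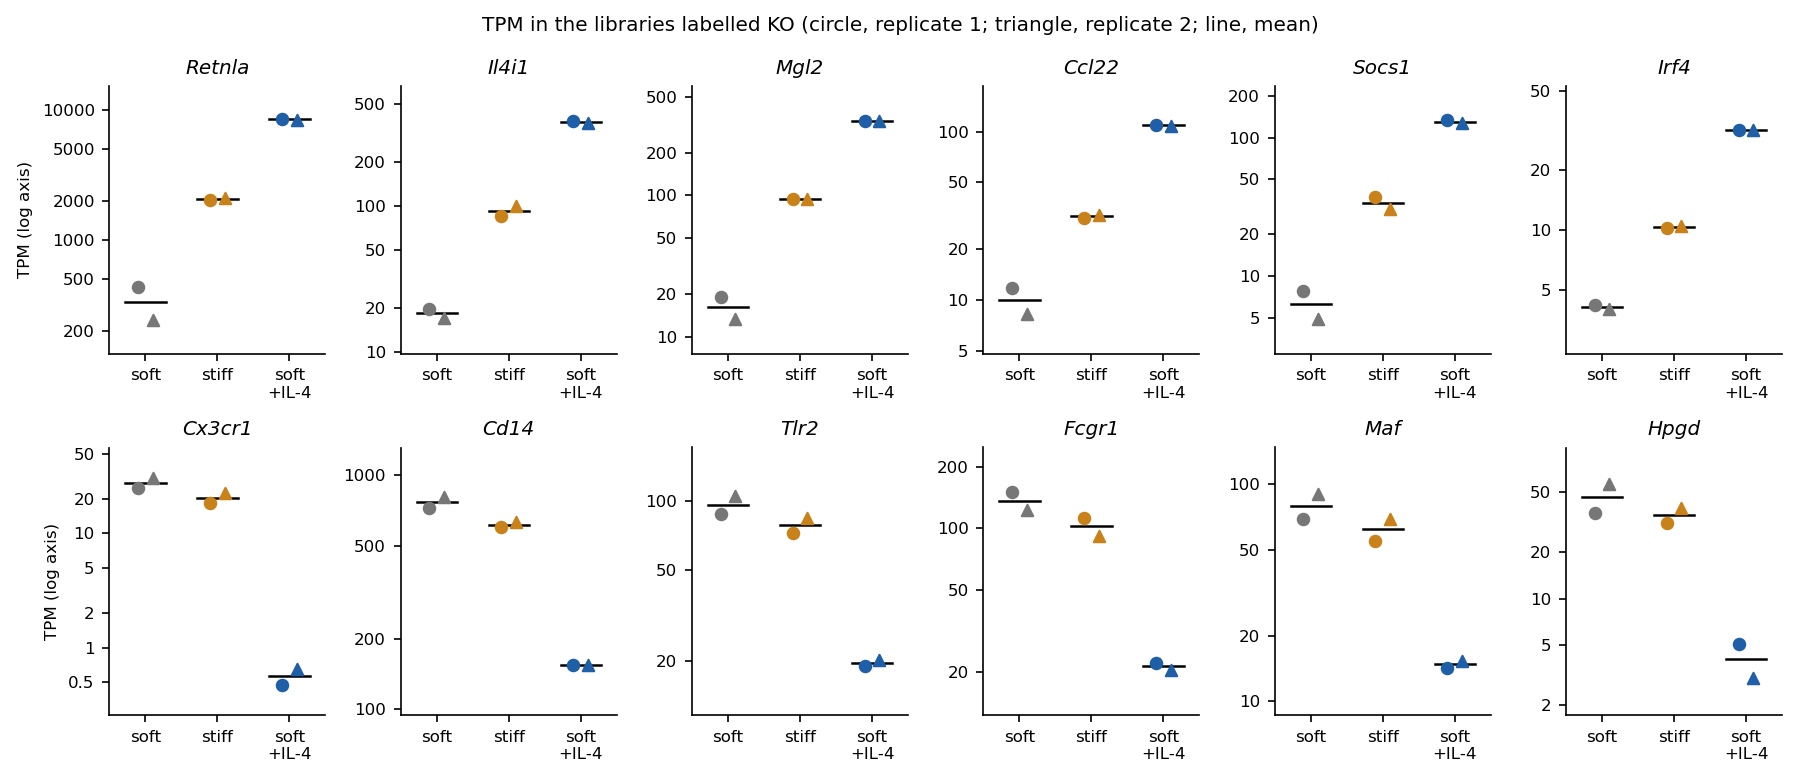
TPM (log axis) of 12 genes in the libraries labelled KO soft, KO stiff and KO soft+IL-4, with circles for replicate 1, triangles for replicate 2 and a line at the mean of each group. In both rows each KO stiff library lies between the means of KO soft and KO soft+IL-4. The upper row holds genes higher with IL-4, such as Retnla (2020 and 2090 TPM). The lower row holds genes lower with IL-4, such as Cd14 (600 and 630 TPM), for which the log axis draws KO stiff near KO soft. From the KO soft mean to that of KO soft+IL-4 in TPM, KO stiff 1 and 2 lie at 20.8% and 21.7% for Retnla. For Cd14 they lie at 27.3% and 22.3%.

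Of the SOCS family genes, feedback inhibitors of cytokine receptors, Socs1, Cish and Socs2 were called lower in KO stiff, while Socs3, Il4ra, Il2rg and Stat6 did not pass the test. Socs1, an inhibitor of JAK kinases, was listed at 37.3 and 30.5 TPM in KO stiff, 133 and 127 TPM with IL-4 and 7.76 and 4.87 TPM in the soft gel (log2 fold change -1.92 ± 0.316, adjusted p = 0.0101 in limma). Cish, of the same family, was at 11.3 and 10.4 TPM against 37.7 and 46.8 TPM, and Socs2 at 1.88 and 2.73 TPM against 10.5 and 8.90 TPM. Both stiff libraries lay below both IL-4 libraries in each of the 3. Socs3 was at 6.77 and 6.79 TPM in KO stiff and 4.58 and 2.63 TPM with IL-4 (0.79, adjusted p = 0.320). Il4ra was at 28 and 35.6 TPM in KO stiff and 28.4 and 29.2 TPM with IL-4, Il2rg at 250 and 300 TPM against 234 and 265 TPM, and Stat6 at 110 and 108 TPM against 98.7 and 94.1 TPM. Il13ra1, a chain of the other IL-4 receptor, was the only receptor gene of the list to be called, at 5.61 and 5.71 TPM in KO stiff and 1.73 and 2.58 TPM with IL-4 (1.09, adjusted p = 0.0206). The list of 14 thus held 3 genes called lower and 1 called higher, with a median of 0.12, and 0 or 1 called member with 1 of the 4 compared libraries left out.

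Among 19 polarization transcription factors, 3 were called lower (Irf4, Bhlhe40 and Myc) and 1 higher (Maf), against 0.531% and 1.17% of all genes tested. Irf4, which acts downstream of IL-4 in macrophages, was at 10.2 and 10.5 TPM in KO stiff, 31.8 and 31.7 TPM with IL-4 and 4.23 and 4.00 TPM in the soft gel (log2 fold change -1.53 ± 0.125, adjusted p = 0.000418 in limma). Bhlhe40 was at 71.3 and 56.0 TPM against 156 and 154 TPM with IL-4. Maf, the gene of the factor c-Maf, ran the other way, at 54.7 and 69.4 TPM in KO stiff, 14.2 and 15.4 TPM with IL-4 and 69.1 and 89.8 TPM in the soft gel. Egr2 had a log2 fold change of -1.02 with an adjusted p of 0.0575, and Pparg one of -0.50 with an adjusted p of 0.414.

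The other genes with the largest lower values in KO stiff have varied roles. Pdcd1lg2 encodes PD-L2, a ligand of the T cell receptor PD-1, and was at 9.83 and 8.98 TPM in KO stiff against 36.4 and 37.4 TPM in KO soft+IL-4 (log2 fold change -1.86, adjusted p = 0.00319 in limma). Aldh1a2, an enzyme of retinoic acid synthesis, was at 2.53 and 2.67 TPM against 13.2 and 12.8 TPM (-1.96). Apol7c was at 14.2 and 21.4 TPM against 70.2 and 69.0 TPM (-1.94), and Plekhf1 at 11.2 and 8.36 TPM against 36.5 and 34.4 TPM (-1.77). Tfrc, the transferrin receptor through which cells take up iron, was at 46.7 and 51.7 TPM in KO stiff and 143 and 154 TPM with IL-4 (-1.58, adjusted p = 0.000278). Slc40a1, the iron exporter ferroportin, lay in the opposite direction, at 9.92 and 11.2 TPM against 1.99 and 2.93 TPM (1.75, adjusted p = 0.0169), and so did Hp, the gene of the haemoglobin scavenger haptoglobin (16.8 and 28.4 TPM against 5.22 and 4.53 TPM). Of 12 iron handling genes these were the 3 called, against 1.71% of all genes tested.

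The promoters of the genes called lower were searched for TTC and GAA with 4 bases of any kind between them, the palindrome that STAT6 binds, which reads alike on both strands, in the RefSeq windows of 250 bases before to 50 bases after each start (GRCm38.p6). It was found for 8 of the 38 genes called lower that have a window (21.1%), for 6 of the 94 called higher (6.38%), for 6.45% of the 8280 genes tested that have one and for 8.01% of all 27025 genes with one. The arrangement with 3 bases between them, which other STAT factors bind, was found for 13.2%, 9.57%, 8.27% and 9.55% of the same groups. Windows that hold both arrangements count for each. For comparison, 2 copies of GAAA with 2 bases between them, as interferon response elements have, were found for 10.5%, 11.7%, 3.99% and 3.99% of the same groups. TGANTCA, the AP-1 site, was found for 5.26%, 11.7%, 6.00% and 8.97%. Of the 11 called genes of the 2 IL-4 lists, 9 have a window and only Retnla holds the first arrangement. Its site and, chosen after their values were seen, those of the 5 next genes called lower that hold it are printed 5′ to 3′ on the strand of the gene with 20 bases on each side and the match in capitals, to show how the letters differ around the same TTC and GAA. A match is a description of letters and not a shown binding site.
Retnla, chr16:48842444-48842493, plus strand, 145 bases before the start: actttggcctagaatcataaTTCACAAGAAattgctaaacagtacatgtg
Apol7c, chr15:77533358-77533407, minus strand, 72 bases before the start: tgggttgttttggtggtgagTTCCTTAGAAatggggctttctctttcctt
Pdcd1lg2, chr19:29410817-29410866, plus strand, 82 bases before the start: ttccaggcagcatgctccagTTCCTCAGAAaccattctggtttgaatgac
Plekhf1, chr7:38228084-38228133, minus strand, 119 bases before the start: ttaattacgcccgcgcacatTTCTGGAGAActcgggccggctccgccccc
Tmem26, chr10:68723685-68723734, plus strand, 41 bases before the start: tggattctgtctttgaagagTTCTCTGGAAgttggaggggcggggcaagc
Hebp2, chr10:18546131-18546180, minus strand, 84 bases before the start: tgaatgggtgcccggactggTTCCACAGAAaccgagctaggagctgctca
Log2 fold changes of the 6 genes, in the same order, were -2.04, -1.94, -1.86, -1.77, -1.69 and -1.56. Tmem26 holds a further match at 227 bases before its start.

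Of 15 chemokine and chemoattractant receptor genes tested, 5 were called higher and 0 lower (Cx3cr1, Fpr2, Cxcr3, C5ar1 and Ccr2), with a median log2 fold change of 0.83, and 2 to 4 were called with 1 of the 4 compared libraries left out. Cx3cr1, the fractalkine receptor gene (chromosome 9, 119901616 to 120069879 on GRCm38), was at 18.4 and 22.7 TPM in KO stiff, 0.474 and 0.644 TPM with IL-4 and 24.9 and 30.6 TPM in the soft gel. Both IL-4 libraries lay under 1 TPM, so the gene was tested through KO stiff only. Its log2 fold change of 3.79 ± 0.408 had an adjusted p of 0.00130 in limma. Cxcr3 also passed the filter through KO stiff only, so both genes had to be higher to be tested. Over all genes tested, 1.17% were called higher and 0.531% lower. The complement receptor gene C5ar1 was at 217 and 249 TPM in KO stiff against 85.2 and 87.4 TPM (1.42, adjusted p = 0.000494). Ccr2, which brings monocytes out of the marrow, was at 70.7 and 72.0 TPM against 28.2 and 27.4 TPM (1.33, adjusted p = 0.0109), and the formyl peptide receptor gene Fpr2 at 8.68 and 16.2 TPM against 0.885 and 1.98 TPM (2.44, adjusted p = 0.0158).

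Of 18 Toll-like receptor and adaptor genes, Cd14, Tlr2 and Tlr9 were called higher and 0 lower, against 1.17% and 0.531% of all genes tested. Tlr2, the receptor of bacterial lipopeptides, was at 72.3 and 83.8 TPM in KO stiff, 18.9 and 20.1 TPM with IL-4 and 87.2 and 105 TPM in the soft gel (log2 fold change 1.94 ± 0.131, adjusted p = 0.000178 in limma). Cd14, the coreceptor for lipopolysaccharide, was at 600 and 630 TPM against 154 and 155 TPM with IL-4 (1.99, adjusted p = 0.0131). Tlr7, a receptor of single-stranded RNA, was at 71.6 and 87.8 TPM against 38.4 and 41.2 TPM and fell just under the limit on the log2 scale (0.98, adjusted p = 0.00999). Tlr4 was at 28.3 and 34.7 TPM in KO stiff and 39.6 and 43.8 TPM with IL-4 (-0.40, adjusted p = 0.228).

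Of 24 macrophage identity genes, Fcgr1 and Gas6 were called higher and 0 lower, against 1.17% and 0.531% of all genes tested. Fcgr1, the high-affinity Fc receptor for IgG, was at 113 and 92.1 TPM in KO stiff, 22.1 and 20.4 TPM with IL-4 and 150 and 122 TPM in the soft gel (2.21 ± 0.146, adjusted p = 0.000178 in limma). Adgre1, which encodes F4/80, was at 802 and 932 TPM against 494 and 524 TPM (0.76, adjusted p = 0.0157), and Csf1r, the M-CSF receptor gene, at 1650 and 1810 TPM against 1400 and 1400 TPM (0.30, adjusted p = 0.192). Lyz2, the lysozyme gene that fills most of the macrophage marker sum, was at 40500 and 42700 TPM in KO stiff and 19200 and 19400 TPM with IL-4 (1.11, adjusted p = 0.00257). In bulk libraries fewer cells of a type and less RNA per cell cannot be told apart.

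Pilra and Pilrb1, an inhibitory and an activating receptor encoded side by side on chromosome 5, were at 17.1 and 16.1 TPM and at 13.1 and 15.6 TPM in KO stiff, against 2.07 and 1.81 TPM and 0.220 and 0.972 TPM with IL-4. Their log2 fold changes were 2.58 (adjusted p = 0.000418 in limma) and 3.30 (adjusted p = 0.00370). Chosen after their values were seen, Pilrb2 (2.44), Sirpb1a (2.16), Sirpb1b (2.17), Siglece (1.92), Clec4e (1.83), Clec12a (1.53), Clec4d (1.32), Siglec1 (1.21) and Fcgr4 (1.21) were called in the same direction. Clec4e, the receptor Mincle for microbial glycolipids, was at 45.1 and 62.4 TPM in KO stiff and 13.8 and 14.6 TPM with IL-4. The membrane protein gene Ms4a6b was at 66.7 and 85.0 TPM against 12.9 and 11.9 TPM (2.51), and Ms4a4c at 28 and 27.1 TPM against 5.29 and 3.6 TPM (2.41). Ly6a, which encodes Sca-1, was at 60.4 and 41.8 TPM against 7.38 and 6.04 TPM (2.74), and the adhesion receptor gene Adgre4 at 7.98 and 10.1 TPM against 0.564 and 0.472 TPM (2.72). Pilrb1, Siglece and Adgre4 passed the filter through KO stiff only, so they had to be higher to be tested. The Pilrb, Sirpb1, Ms4a6, Ctla2 and Lyz genes each have close copies, so the share of reads that each received is uncertain.

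The largest difference of all towards a higher level in KO stiff than with IL-4, that of Apoc2, an activator of lipoprotein lipase, was also among the least even. It was listed at 146 and 48.5 TPM in KO stiff, 3.07 and 3.84 TPM with IL-4 and 203 and 52.6 TPM in the soft gel, so that KO stiff 1 and KO soft 1, which also had the higher Camkk2, had the higher Apoc2 level (log2 fold change 4.26 ± 0.746, adjusted p = 0.0131). Hpgd, the enzyme that inactivates prostaglandins, was at 31.3 and 39.2 TPM against 5.02 and 3.01 TPM with IL-4 (2.88, adjusted p = 0.00144). Hpgds, a prostaglandin D2 synthase, had a mean of 50.5 TPM against 14.9 TPM (1.70), while Ptgs1, the cyclooxygenase-1 gene, was at 11.1 and 10.0 TPM against 30.9 and 30.1 TPM (-1.45). Hpgds and Ptgs1 were chosen after their values were seen. LOC100038947 (2.86) and Ctla2b (2.70) complete the 10 largest differences higher in KO stiff than in KO soft+IL-4.

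Inflammatory cytokine and chemokine genes moved in both directions. Of 22 tested, 4 were called higher in KO stiff (Cxcl1, Nlrp3, Il1b and Cxcl2) and 2 lower (Ccl7 and Ccl2), with a median of 0.15. Over all genes tested, 1.17% were called higher and 0.531% lower. Cxcl1 passed the filter through KO stiff only, so it had to be higher to be tested. Il1b was at 10.2 and 14.9 TPM in KO stiff and 3.98 and 3.30 TPM with IL-4 (1.53, adjusted p = 0.0406 in limma), and the inflammasome sensor gene Nlrp3 at 17.1 and 19.2 TPM against 5.44 and 5.48 TPM (1.57, adjusted p = 0.0222). The call of Il1b was lost in 4 of 8 other settings, those of Cxcl1 and Ccl7 in 2 and that of Nlrp3 in 1, each time including a log2 limit of 2. The neutrophil chemokine gene Cxcl2 was at 14.7 and 17.6 TPM against 5.79 and 5.38 TPM (1.38, adjusted p = 0.00121). The monocyte chemokine genes Ccl2 (18.8 and 31.9 TPM against 71.1 and 61.9 TPM) and Ccl7 (12.8 and 21.9 TPM against 57.8 and 47.3 TPM) had log2 fold changes of -1.40 and -1.58. Tnf was at 24.3 and 22.2 TPM in KO stiff and 13.1 and 14.4 TPM with IL-4, which did not pass (0.72, adjusted p = 0.613).

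Of 54 interferon-stimulated genes tested, 2 were called higher (Ifit3b and Oas2) and 0 lower, against 1.17% and 0.531% of all genes tested. In 42 both stiff libraries lay above both IL-4 libraries, against 33.3% of all genes tested, and the median log2 fold change was 0.56. The count rests on the WT stiff libraries, since 11 were called higher without WT stiff 1, without WT stiff 2 or with only the 4 compared libraries, and 0 or 1 with 1 of the 4 compared libraries or the 3 whose Camkk2 goes against the label left out. Ifit3b was at 11 and 8.5 TPM in KO stiff and 1.28 and 0.791 TPM with IL-4 (2.40, adjusted p = 0.00352 in limma). Its close copy Ifit3, with which reads may be shared, was at 80.4 and 57.5 TPM against 13.5 and 14.6 TPM (2.20, adjusted p = 0.0995). Irf7, the master factor of the type I interferon response, was at 144 and 163 TPM against 67.5 and 70.4 TPM (1.14, adjusted p = 0.285). Ifi202b, Ifi44 and Ifi44l, which differ between KO stiff 1 and 2, had the most negative values of the list (-2.59, -0.75 and -1.34).

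Of the 25 lists, 11 held 0 called genes in limma, with 50 of their 249 tested members at an unadjusted p under 0.05, 10 higher and 40 lower in KO stiff, where all genes tested had 17.6% under it, 10.3% higher and 7.32% lower. All 31 respiratory chain genes lay lower in both stiff libraries (25% over the whole table tested), by -0.12 to -0.63 on the log2 scale with a median of -0.36, and 4 of them had an adjusted p under 0.05. Uqcrq, a subunit of complex III, had the most negative value (-0.63, adjusted p = 0.0156). Of 19 unfolded protein response genes, 13 lay lower in both stiff libraries, against the same 25%, and 3 had an adjusted p under 0.05, among them the chaperone gene Pdia4 (-0.82, adjusted p = 0.00247). The median was 0.02 over 29 hypoxia and glycolysis genes, 0.30 over 32 DNA replication and cell cycle genes and -0.26 over 13 MHC class II presentation genes. H2-Ab1 was at 2930 and 4350 TPM in KO stiff against 4570 and 4660 TPM in KO soft+IL-4, a difference of the size of the spread between the stiff libraries. Of 30 integrin, actin and mechanosensing genes, Itga6, the laminin receptor chain, was the 1 called (17.7 and 22.2 TPM against 5.14 and 5.38 TPM, 1.74, adjusted p = 0.00960). Of 13 matrix genes, the protease gene Mmp19 was called lower (-1.16, adjusted p = 0.0488), a call lost in 6 of 8 other settings and with each of the 4 compared libraries left out. Among 18 p53 targets Gadd45a (1.36) and Pmaip1 (1.33) were called higher, and among 17 immediate early genes Ier3 (-1.33) was called lower. Over all genes tested, 1.17% were called higher and 0.531% lower. Of 19 genes around CaMKK2, 0 were called and 5 had an unadjusted p under 0.05, against 17.6% of all genes tested. The largest difference was that of its substrate gene Camk1, at 186 and 192 TPM in KO stiff and 108 and 119 TPM with IL-4 (0.73, adjusted p = 0.00319).

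**Figure D3:**
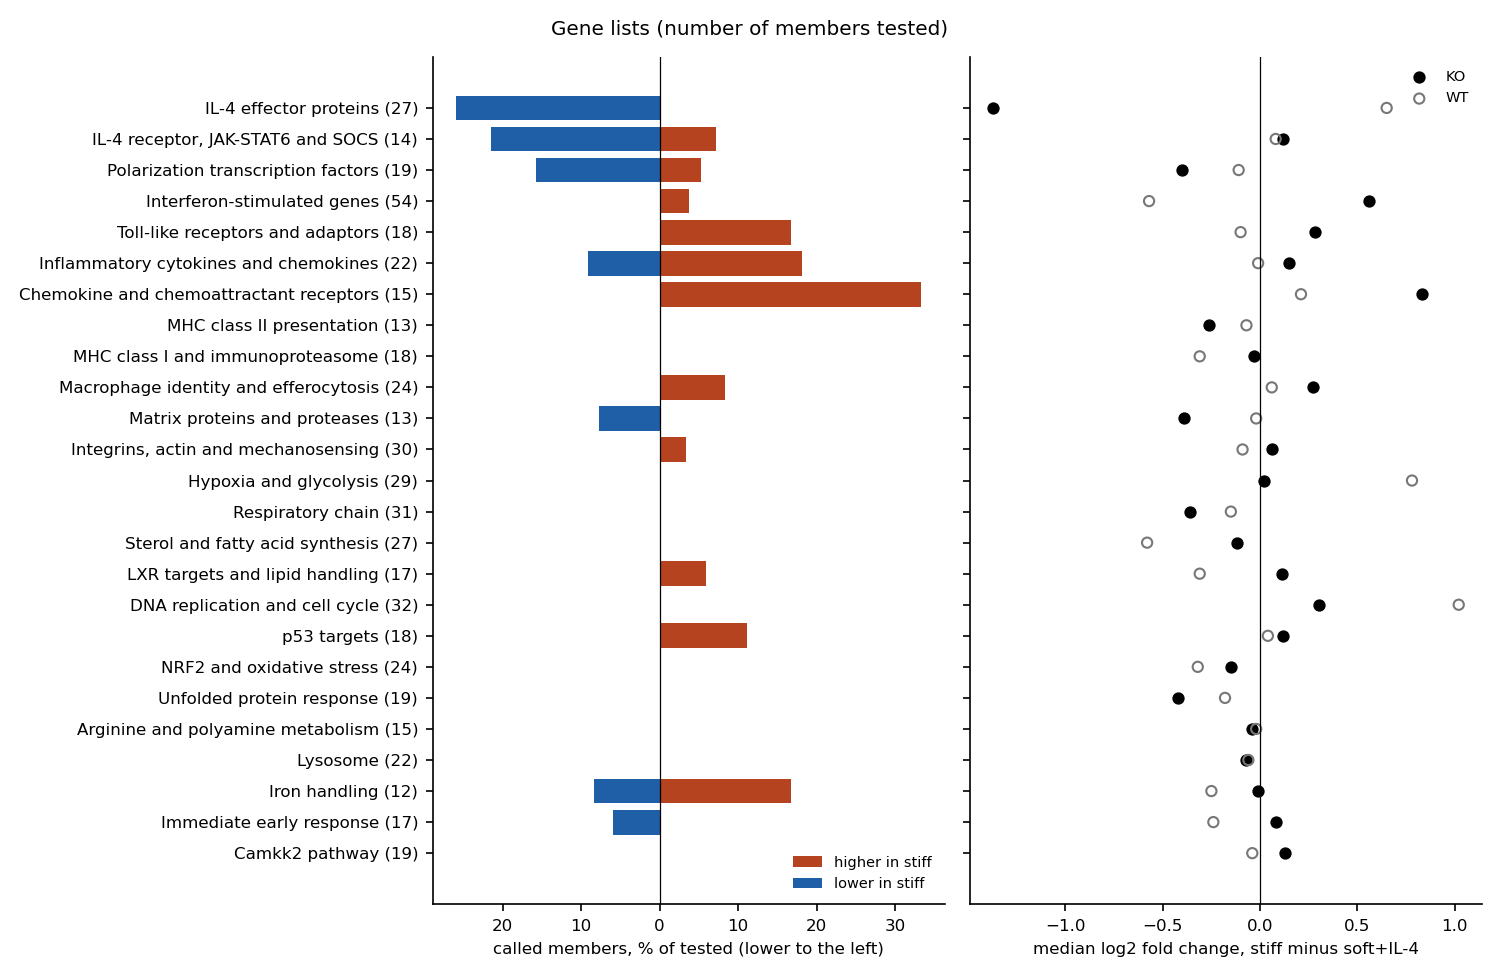
Left, share of the tested members of each gene list that were called higher (red, to the right) or lower (blue, to the left) in KO stiff against KO soft+IL-4, in percent, with the number tested in brackets. Right, the median log2 fold change of each list in KO (filled) and in WT (open), where the IL-4 effector genes lie at -1.37 in KO and 0.65 in WT. WT stiff 1 and 2 lay far apart for some of these genes. From the WT soft mean to that of WT soft+IL-4 in TPM, they lay at 312% and 112% for Retnla and at 17.5% and 119% for Ccl24.

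For most IL-4 responsive genes the KO stiff libraries lay between KO soft and KO soft+IL-4. Since a called gene had to lie at least 2-fold from IL-4, genes were chosen without the KO stiff libraries. They are those whose KO soft and KO soft+IL-4 libraries did not overlap and whose log2 means differed by 2 or more. This choice rests partly on KO soft 1, whose Camkk2 goes against its label. A position of 0% is the mean TPM of KO soft and one of 100% that of KO soft+IL-4, so both ends are shared by all positions, and they are given as a description with no test. Over the 55 genes higher with IL-4, the median position was 24.1% in KO stiff 1 (interquartile range 19.8 to 29.9%) and 22.5% in KO stiff 2 (19.9 to 25.1%). Over the 48 genes lower with IL-4, it was 27.2% (14.6 to 36.3%) and 22% (15.5 to 31.9%). The library labelled KO stiff 1, with the higher Camkk2, and KO stiff 2 thus had close medians in both sets. Between 0 and 50% lay 51 and 53 of the 55 genes and 36 and 38 of the 48. Ifi202b, which differs between KO soft 1 and 2, is among the 55, at -89.6% in KO stiff 1 and 95.0% in KO stiff 2. Apoe (-61.8 and 90.8%), Cd5l (-25.1 and 78.5%) and Apoc2 (-14.5 and 63.8%) split likewise among the 48. The part of KO soft 1 in the positions was not tested. Examples near these medians, by the mean of both KO stiff libraries, are Retnla (21.2%), Il4i1 (20.7%), Socs1 (22.3%), Irf4 (22.6%) and Tfrc (22.3%). Other genes differed between KO stiff 1 and 2, such as Arg1 (63.6 and 16.0%), Ear2 (57.5 and 24.8%), Ccl17 (42.8 and 18.2%) and Chil3 (38.1 and 20.4%). Ccl2 (7.98 and 33.3%) and Ccl7 (12.9 and 32.9%) differed the other way. A like partial level in every cell, a full level in a part of the cells and a mix of material between cultures or libraries cannot be told apart in these bulk libraries. In WT, by the same rule, the medians were 97.2% and 95.0% in WT stiff 1 and 2 over 56 genes higher with IL-4 (31.5 to 211% and 86.1 to 103%), and 98.0% and 100% over 39 genes lower with IL-4. In WT stiff 1, 27 of the 56 lay above 100% and 16 between 0 and 50%, so its median is no typical position. In WT stiff 2 these were 17 and 5. The WT choice of genes and the 0% end rest partly on WT soft 2, whose Camkk2 goes against its label.

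**Figure D4:**
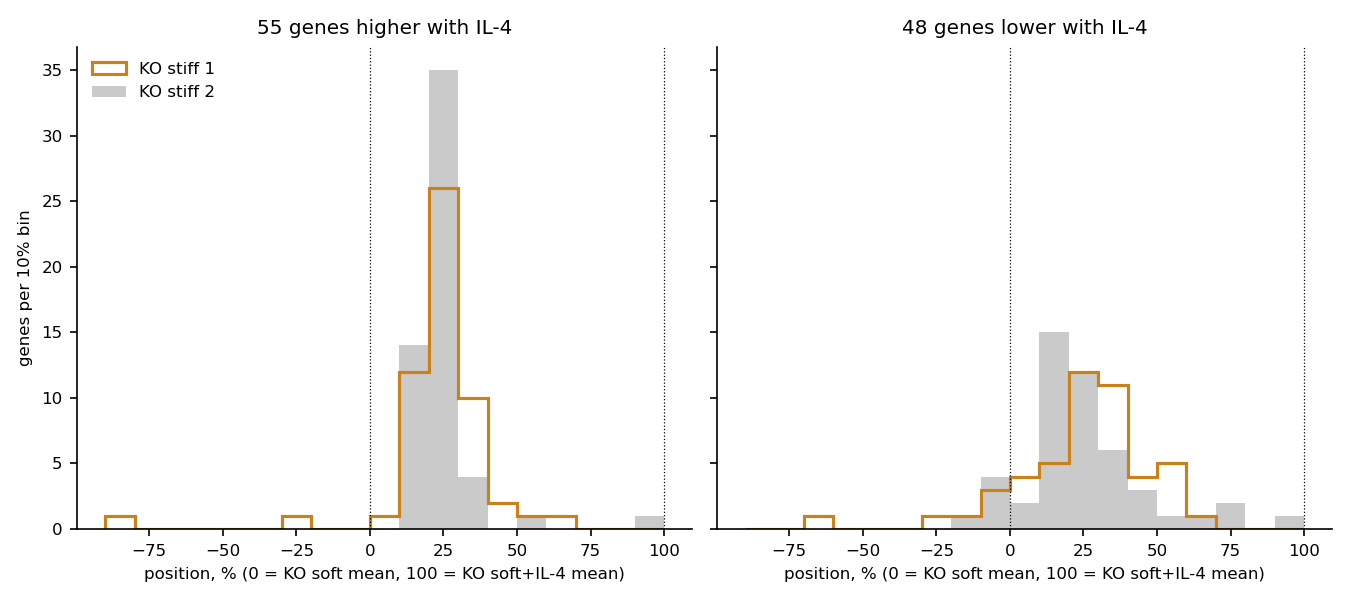
Number of genes (vertical axis) by position of each KO stiff library between the mean TPM of KO soft (0%) and of KO soft+IL-4 (100%), in bins of 10%, for 55 genes higher and 48 genes lower with IL-4. The outline is KO stiff 1 and the filled histogram KO stiff 2, and their medians lie between 22% and 27.2%.

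Among the 57 genes called lower in KO stiff, 52 had both stiff libraries above both KO soft libraries and 5 overlapped with them. Among the 126 called higher, 65 had both stiff libraries below both KO soft libraries, 61 overlapped and 0 lay above. KO soft lay beyond KO stiff, seen from IL-4, by its mean in 55 of the 57 and in 124 of the 126. These counts use the libraries that chose the genes.

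Whether the contrast differs between genotypes was tested by the interaction, the difference of stiff minus soft+IL-4 in KO less that in WT. It was called for 81 genes (0.755%), positive in 67 (0.625%) and negative in 14 (0.131%). The interaction contains the KO contrast itself and shares its 4 libraries, so the values of both genotypes are given side by side. Over the genes called in KO, the median log2 fold change in WT was 0.06 for the 126 and -0.07 for the 57, and 1 of the 126 and 0 of the 57 differed by 1 or more on the log2 scale with the same sign in WT. For Cx3cr1 the WT levels were 4.17 and 0.700 TPM in WT stiff and 1.6 and 1.52 TPM in WT soft+IL-4, which overlap, and the interaction was 3.57 ± 0.577 (adjusted p = 0.0222 in limma). For Pdcd1lg2 they were 56.0 and 31.5 TPM against 27.6 and 29.9 TPM, and the interaction was -2.40 ± 0.346 (adjusted p = 0.0140). Retnla, at 21500 and 7920 TPM in WT stiff and 7140 and 7100 TPM in WT soft+IL-4, did not pass (-2.91 ± 0.636, adjusted p = 0.0742). The count rests on the WT stiff libraries, which differ from each other: it was 177 without WT stiff 1, 806 without WT stiff 2 and 12 to 25 without any other library of the 4 groups. Without the 3 libraries whose Camkk2 goes against the label it was 2.

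**Figure D5:**
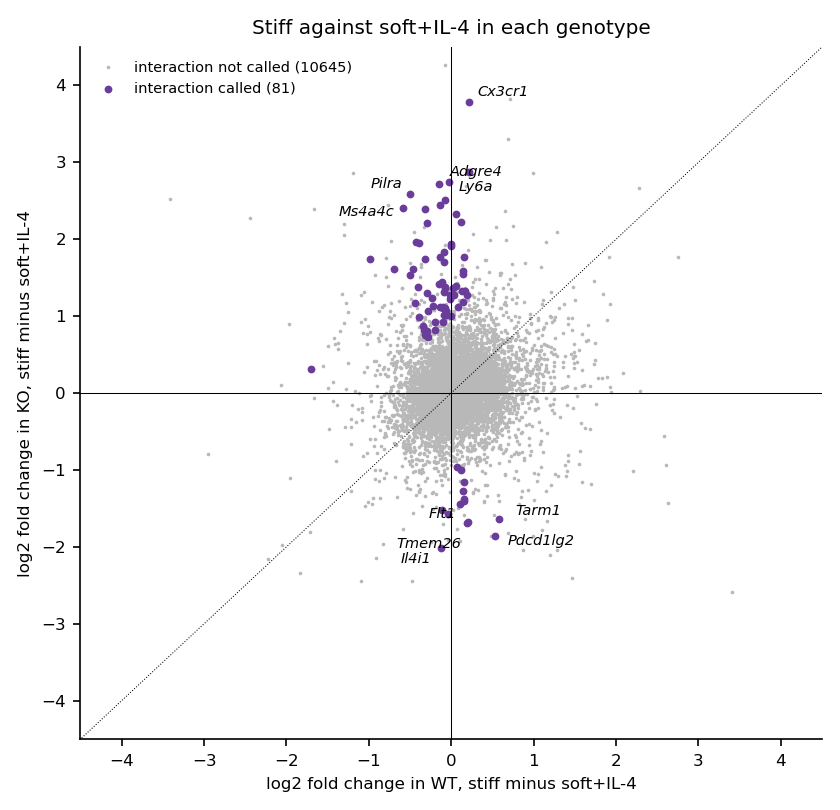
Log2 fold change of stiff minus soft+IL-4 in KO (vertical axis) against that in WT (horizontal axis), 1 point per gene tested. Purple points are the 81 genes with a called interaction, most of which lie far from 0 in KO and near 0 in WT, and the dotted line marks equal change in both genotypes.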

How the data were processed

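RNA was sequenced from BMDM in 12 libraries, 2 biological replicates for each of 6 groups per the labels. The authors deposited 1 table of TPM values (reads divided by gene length and scaled to the same total in each library). Per the labels, reads were trimmed with Trim Galore 0.6.7 and quantified with Salmon 1.4.0 on mm10, while the study's methods name snakePipes, STAR, featureCounts and DESeq. Which of these made the TPM values is not settled, and TPM gives no depth, so no counting interval is given. Reads that near-identical genes share are an open source of error.

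Groups were taken from the sample titles, and 0 columns were left unused. Genes that reached 1 TPM in 2 or more of the compared libraries were tested on log2(TPM + 1), which understates changes of low genes, with limma 3.58.1 in R 4.3.3. All 12 libraries entered 1 model with a mean per group, no covariates and a variance trend, and p-values were adjusted by Benjamini-Hochberg. Calls needed a log2 difference of 1 or more, in size, besides an adjusted p under 0.05. Values after ± are standard errors. On simulated data with known changes the code was tested before use.

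Genes named are Camkk2, the 10 largest differences in each direction among called genes, up to 4 called members of each list and any member of the 2 IL-4 lists. Genes the study names for its RNA results and the 5 largest interactions in each direction were also named. Values of other list members were added after they were seen. Lists and members were written by hand, with earlier results of these data known. Coordinates are from GENCODE vM21 (GRCm38), in which 13521 of 14098 symbols were found once, and promoters from RefSeq. Alternatives were other pseudocounts, filters, scaling, thresholds, libraries in the fit, no variance trend, the replicate number as a block and each compared library left out.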

Additional observations from a re-analysis of the deposited data

Results flagged for a closer look

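The contrast of stiff against soft+IL-4 differed between KO and WT, by the interaction in limma, for 81 genes, and the 5 largest values in each direction are given here. On the log2 scale they were 3.57 for Cx3cr1, 3.08 for Pilra, 2.99 for Ms4a4c, 2.87 for Adgre4 and 2.77 for Ly6a, and -2.4 for Pdcd1lg2, -2.22 for Tarm1, -1.9 for Il4i1, -1.89 for Flt1 and -1.89 for Tmem26. Cx3cr1 and Adgre4 passed the filter through KO stiff only, so they had to be higher in KO stiff to be tested. Pilra was at 17.1 and 16.1 TPM in KO stiff and 2.07 and 1.81 TPM in KO soft+IL-4, against 1.62 and 2.14 TPM in WT stiff and 4.01 and 2.25 TPM in WT soft+IL-4. Il4i1 was at 85.9 and 99.7 TPM in KO stiff and 382 and 374 TPM in KO soft+IL-4, against 232 and 304 TPM in WT stiff and 298 and 280 TPM in WT soft+IL-4. Tmem26 was at 14.2 and 13.5 TPM in KO stiff and 46.4 and 47.3 TPM in KO soft+IL-4, against 71.4 and 49.4 TPM in WT stiff and 50.3 and 53.1 TPM in WT soft+IL-4. In each of these 3 genes the KO stiff libraries stood apart from the other 6 given here, while KO soft is not given. The choice by the largest interactions favours such a separation, so it is no further support. The part of the Camkk2 level of KO stiff 1 in these values was not tested.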

How the results depend on the processing

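The 183 DE genes kept their sign under all alternatives tried, and no called gene named here turned its direction. With no overlap between the compared libraries, leaving some out could not turn a sign, so this is no further support. The count moved to 24 when a log2 difference of 2 was required (22 higher, 2 lower) and to 289 with only the 4 compared libraries in the fit (100 of them lower), which held 182 of the 183. The interaction count of 81 moved to 129 at an adjusted p under 0.1 (35 negative), to 22 with a log2 limit of 2 (20 positive, 2 negative) and to 31 with only the 8 compared libraries (20 positive). With each compared library left out, the counts ran from 68 to 279 DE genes (54 to 186 higher, 14 to 93 lower) and from 12 to 806 interactions (9 to 352 positive, 3 to 454 negative). The lone library of such a group is assumed to vary like the others. Without the 3 libraries whose Camkk2 goes against the label, chosen after seeing the data, 18 DE genes (12 higher, 6 lower) and 2 interactions (1 of each sign) remained in number. Mmp19 and Oas2 lost their calls in 6 and 5 of 8 other settings, and Il1b and Matk in 4. The causes were not tested. The other alternatives gave 152 to 220 DE genes and 74 to 92 interactions. With the replicate number as a block 187 DE genes and 92 interactions were called. Same-numbered libraries of the 2 compared groups had deviations from their group means that correlated with r = 0.1028 over genes, and other pairs of groups with -0.05027 to 0.3657, highest among KO soft, KO stiff and WT soft (0.3146 to 0.3657). In these groups Camkk2 was higher in the library numbered 1 (46.6, 37.7 and 44.2 TPM) than in that numbered 2 (11.5, 10.0 and 11.7 TPM). The part of this split in the correlation was not tested. The labels give no origin that the numbers share and not all pairs of groups pass 0.1, and the numbers were not used as pairs. The replicates number 2 per group and the depth of each library is unknown, which limits all counts.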
